A study of Mus musculus with 12 samples.

Results

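The wild type littermate hearts of a study of integrin-linked kinase (ILK) were compared among themselves, the first control set against the second. The sets were told apart by the spelling of the sample titles, which write littermate with a lower-case letter for hearts 1, 3 and 6 and with a capital for hearts 8, 10 and 11. They are 6 of the 12 hearts in the series, 3 in each set, and 22519 of the 45037 probe sets passed the filter on low signal and were tested in them. All 12 mice were C57BL/6 mice aged 8 to 9 weeks, with 1 array of total heart RNA per mouse. The control mice carry no transgene by their genotype label WT, and the other hearts came from mice labelled ILKS343D Tg (TgS343D, hearts 2, 4 and 5) or ILKR211A Tg (TgR211A, hearts 7, 9 and 12), in which a mutant ILK is over-expressed in the heart. Heart 1 is labelled male and the other 11 female, and only the description of heart 1 names the left ventricle.

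The comparison asks how far control hearts of 1 genotype differ from each other, against which the differences of a transgenic line have to be read. No source used here says which line a control set belongs to. The first set and the TgS343D mice share the heart numbers 1 to 6, and the second set and the TgR211A mice share 7 to 12, so that a litter, a day of tissue collection and a control set cannot be told apart. The study's methods describe hearts with and without myocardial infarction for these arrays, but the labels name no surgery, and none was assumed. The deposited values are MAS5 signals, an intensity per probe set on a linear scale, and differences are given on the log2 scale as the second set minus the first, with the standard error (SE) of a linear model over all 12 arrays. A probe set was called where the Benjamini-Hochberg adjusted p of limma's moderated test was under 0.05, and sets were said not to overlap where every heart of a set lay on the same side of every heart of the other.

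Several of the genes described belong to the immediate early response. Immediate early genes are transcribed within minutes of a stimulus without new protein synthesis, from promoters on which pre-formed factors such as CREB and SRF act, and many of their mRNAs are short-lived. In the heart they respond to stretch, adrenergic drive, ischemia and to the handling of the tissue itself. Nr4a1 encodes an orphan nuclear receptor of this class (Nur77), Dusp1 a phosphatase that switches off mitogen-activated protein kinases (MAPK), and Myh7 the slow beta-myosin heavy chain, which adult mouse ventricles replace with the alpha chain.

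The label of heart 1 was checked first. Xist, the RNA of the inactive X chromosome in females, had a signal of 718 in heart 1, between 703 and 864 in the other control hearts. The Y-linked Eif2s3y had 4.5 in heart 1 and between 0.8 and 6.7 in the other control hearts, far below the filter at 43.5. Kdm5d, also on the Y chromosome, had 18.5 against 11.3 to 23.1. The values of heart 1 therefore went against the label male, and the results were also computed without it. Ilk was not called between the sets, with signals of 611, 657 and 630 in the first set and 585, 572 and 551 in the second, a difference of -0.15 (SE 0.085, adjusted p = 0.68 by limma), against 3258 to 4016 in TgS343D and 8223 to 9553 in TgR211A hearts.

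Arrays were about as similar across the sets as within them. Pearson correlations of log2 signal over the tested probe sets were 0.969 to 0.981 for the 9 pairs that cross the sets, 0.976 to 0.981 within the first set and 0.974 to 0.982 within the second. The median absolute difference between the set means was 0.11, 90% of the probe sets differed by less than 0.34, and 77 (0.342%) differed by 2-fold or more. The ratio of 3' to 5' probe sets, a sign of RNA quality, was 0.77 to 0.80 for Gapdh in the first set and 0.78 to 0.79 in the second. The median width of the 95% interval was 0.31 on each side of the estimate, and the number of arrays limits this precision.

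Of 22519 probe sets, 2 were called, Nr4a1 as higher and Tmem267 as lower in the second set, which is 0.00444% in each direction and 0.00888% in both. At an unadjusted p under 0.05, 1016 probe sets (4.51%) were higher and 784 (3.48%) lower, 1800 in all, where 1126 are expected without any difference. Sets that did not overlap were found for 1571 probe sets (6.98%) in the higher and 1270 (5.64%) in the lower direction.

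Nr4a1 gave the largest shift among the called genes. Its signal was 131, 147 and 94 in hearts 1, 3 and 6 of the first set and 517, 460 and 364 in hearts 8, 10 and 11 of the second. The sets did not overlap, and the lowest heart of the second set stood above the highest of the first by more than the spread within either. The difference was 1.86 (SE 0.19, adjusted p = 0.0043 by limma), or 3.63-fold. It was called with each of the 12 hearts left out in turn, at 1.67 to 2.00, and was 1.91 (adjusted p = 0.017) without heart 1. An exact permutation test over the 6 hearts gave p = 0.1, the smallest that 3 against 3 allow. Of the 20 nearest measured genes along chromosome 15, none was called and 2 were lower at an unadjusted p under 0.05 (4.18% of all genes).

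Tmem267, a membrane protein of little known function, was the only probe set called as lower. The first set had signals of 194, 213 and 239, and the second set 91, 79 and 104. The sets did not overlap, and the difference was -1.24 (SE 0.14, adjusted p = 0.0043 by limma), or 2.36-fold. The call was kept with each heart left out in turn, at -1.34 to -1.14, but with the 6 control hearts alone in the fit the adjusted p was 0.078. None of its 13 measured neighbours on chromosome 13 was called, and 1 was lower at an unadjusted p under 0.05 (4.18% of all genes).

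Dusp1 was next in order of p among the genes with higher signal. It had 943, 1048 and 1095 in the first set and 1802, 1703 and 1315 in the second, sets that did not overlap. The difference of 0.63 (SE 0.11, unadjusted p = 5.8e-05) did not pass the correction (adjusted p = 0.23). Without heart 11, the lowest of the second set, it was 0.77 and was called (adjusted p = 0.017).

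Myh7 had signals of 637, 325 and 458 in the first set and 937, 1130 and 868 in the second. The sets did not overlap, and the difference was 1.09 (SE 0.24, adjusted p = 0.24 by limma), which is not called. Its range without 1 heart was 0.85 to 1.33, with adjusted p of 0.23 to 0.51.

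**Figure D1:**
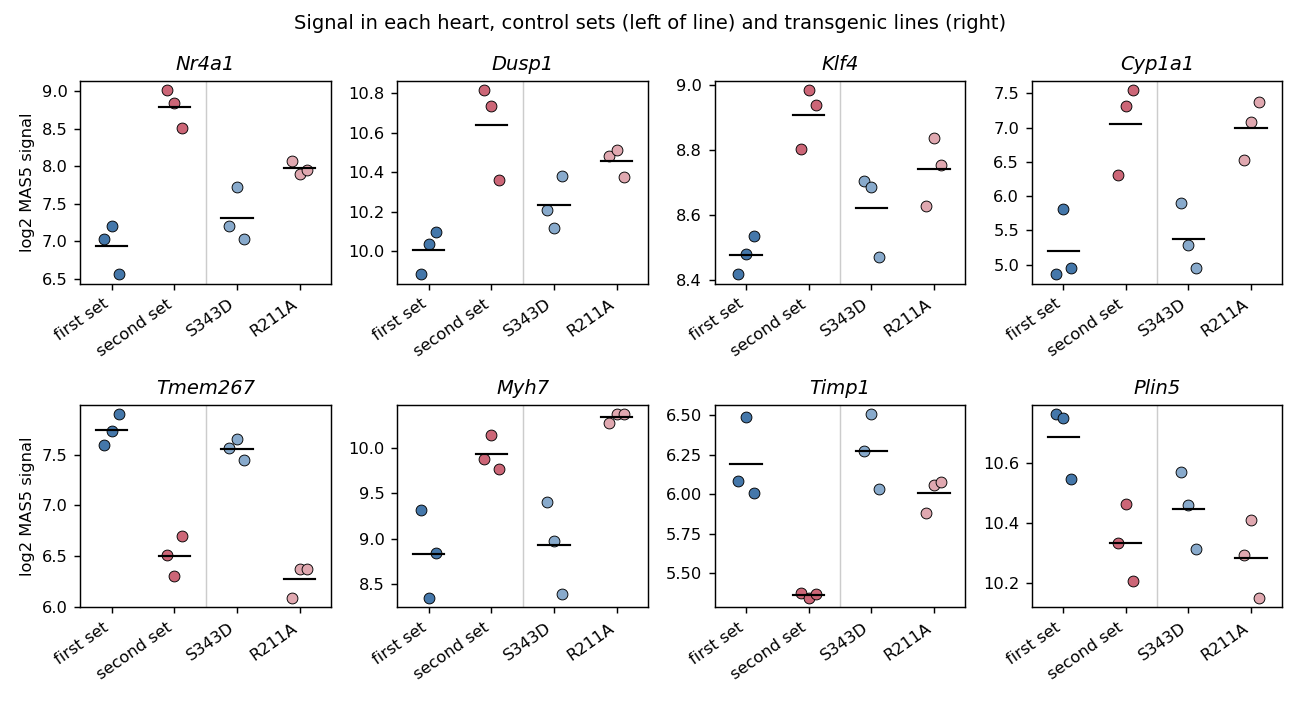
Log2 MAS5 signal of 8 genes in each of 12 hearts, with points for hearts and bars for the means of 3, the control sets left and the transgenic lines right of the grey line. Nr4a1 lies at 364 to 517 in the second set (8.5 to 9.0 on the log2 axis) and 94 to 147 in the first, and Tmem267 is low in the second set and in TgR211A hearts alike.

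The promoters of Nr4a1 and Dusp1 are shown because these genes carry the clearest early-response differences and because CREB acts through motifs that can be read in them. The sequences are the 250 bases before the RefSeq start (GRCm38.p6), with capitals for the cAMP response element TGACGTCA and its variant TGCGTCA on either strand. That of Nr4a1 lies on the plus strand at chr15:101266596-101266845 and that of Dusp1 on the minus strand at chr17:26508473-26508722.
Nr4a1: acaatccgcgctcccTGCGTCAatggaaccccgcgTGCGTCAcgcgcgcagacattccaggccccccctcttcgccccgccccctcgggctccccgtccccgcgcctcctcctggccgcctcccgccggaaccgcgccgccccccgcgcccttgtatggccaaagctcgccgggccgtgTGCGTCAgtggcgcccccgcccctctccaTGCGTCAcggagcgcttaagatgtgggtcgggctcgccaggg
Dusp1: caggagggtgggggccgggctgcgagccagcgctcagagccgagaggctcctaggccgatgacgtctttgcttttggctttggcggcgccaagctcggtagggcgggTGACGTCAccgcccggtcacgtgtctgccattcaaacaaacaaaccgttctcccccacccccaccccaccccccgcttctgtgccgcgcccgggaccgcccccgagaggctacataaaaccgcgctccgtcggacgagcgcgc

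The Nr4a1 stretch held 4 copies of TGCGTCA and none of TGACGTCA, and the Dusp1 stretch held 1 copy of TGACGTCA. Among 32851 RefSeq promoter stretches of the same length, TGCGTCA was found in 574 (1.75%) and TGACGTCA in 508 (1.55%). Of the 9053 tested genes with a promoter in the table, counted where any of their stretches held the motif, 305 (3.37%) and 269 (2.97%) held them. Of the 24 tested immediate early genes, 19 had a promoter in the table, and TGCGTCA was found in those of Nr4a1 and Csrnp1, and TGACGTCA in that of Btg2. The other motifs searched on both strands were the AP-1 element TGAGTCA (4.46% of all stretches, 3.9% of tested genes, 1 of 19 early genes), the NF-kB element (0.14%, 0.199%, 0 of 19), the E-box CACGTG (6.02%, 10%, 4 of 19), TATAAA (12.4%, 8.35%, 4 of 19) and the CArG box, CC and GG around 6 bases of A or T (1.47%, 1.44%, 1 of 19). The variant TGCGTCA was added to the planned motifs after the sequences were read. Only the 250 bases before each start were searched, so elements further away were not counted. These matches describe letters and do not show that a factor was bound.

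The immediate early list holds 33 genes, of which 24 passed the filter on low signal. Fosb, Fosl1, Egr2, Egr4, Nr4a3, Atf3, Maff, Myc and Arc did not. Of the 24, 1 was called, 9 were higher and 1 lower at an unadjusted p under 0.05, beside 3.07% higher and 4.18% lower among all 11189 genes. The sets did not overlap in 7 of them in the higher and 1 in the lower direction (5.28% and 6.93% of all genes), and 19 of 24 differences were above 0. The median difference was 0.23, against -0.01 over all genes. With each control heart left out in turn it was 0.19 to 0.33. The median log2 signal of the 24 genes was 7.51, 7.89 and 7.70 in the first set and 8.26, 7.99 and 7.68 in the second, so that as a list the sets overlapped.

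The list was not uniform by gene family. The Kruppel-like factors Klf2, Klf4 and Klf6, transcription factors that in vessels respond to blood flow, were among those with the smallest p. Klf2 had 401, 430 and 477 in the first set and 655, 847 and 735 in the second, a difference of 0.77 (SE 0.16). Klf4 had 342, 357 and 371 against 447, 506 and 490, a difference of 0.43 (SE 0.090). Neither set of values overlapped, and the adjusted p of both was 0.23, so neither was called. Klf6 showed 290, 274 and 304 against 372, 397 and 365 (0.38). A further member of the family, Klf10, a gene induced by TGF-beta, went the other way with 166, 227 and 183 in the first set and 146, 126 and 112 in the second, a difference of -0.58 (SE 0.14, adjusted p = 0.30).

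Ier3, Csrnp1, Zfp36 and Rhob were also among the 9 early genes with higher signal. Ier3, which modulates cell survival, had 451, 498 and 374 in the first set and 601, 734 and 837 in the second (0.71). Csrnp1, a nuclear protein, had 63, 60 and 61 against 93, 89 and 101 (0.61). Neither gene overlapped between the sets, and their adjusted p was 0.30 for both. Zfp36, which binds AU-rich mRNAs and hastens their decay, differed by 0.43 and Rhob, a small GTPase, by 0.23, with adjusted p of 0.59 for each.

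The AP-1 and Egr factors, the best known members of the response, varied from mouse to mouse. Fos had 38, 101 and 26 in the first set and 207, 85 and 65 in the second, which overlap, and its difference of 1.16 had an SE of 0.50. It was also among the 9 early genes with higher signal (unadjusted p = 0.036 by limma, adjusted p = 0.60). Egr1 had 140, 389 and 155 against 474, 262 and 216 (0.56, SE 0.37). In both genes heart 3 was the highest of the first set and heart 8 of the second. Jun, Junb and Jund differed by 0.31, 0.24 and 0.22, with sets that overlapped in each, and Ccn1, a secreted matrix protein of the same response, by -0.28.

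**Figure D2:**
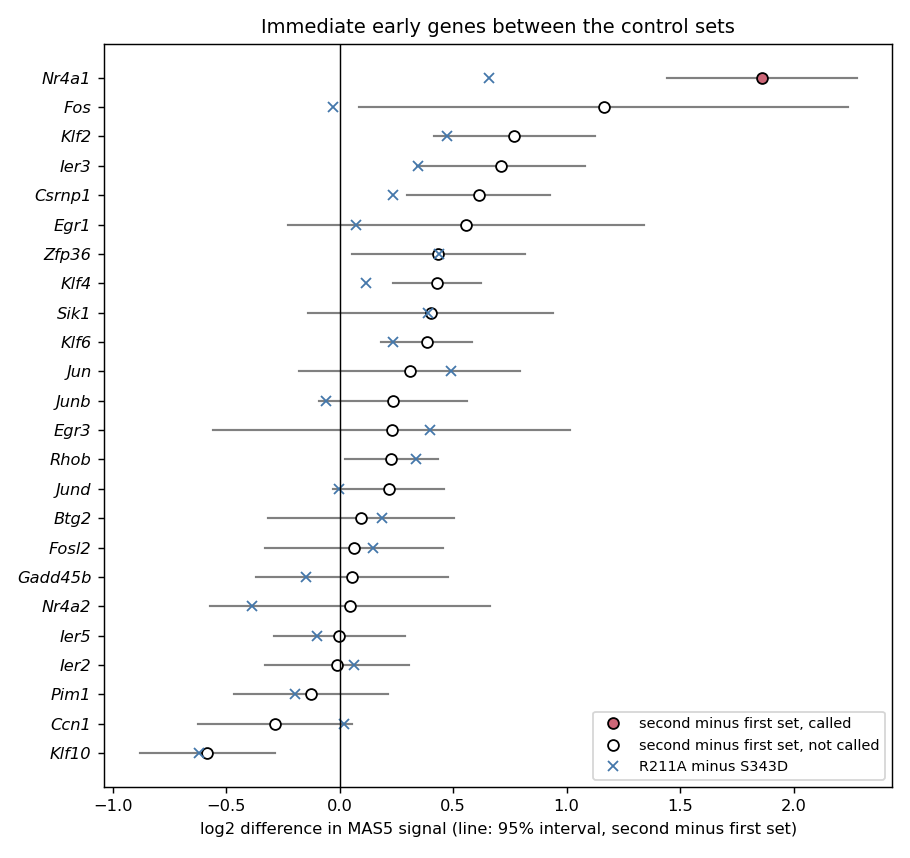
Log2 difference in MAS5 signal between the control sets for the 24 tested immediate early genes (circles, with 95% intervals as lines, filled where called), and the difference between TgR211A and TgS343D hearts (crosses). Nr4a1 is the only filled circle, 19 of 24 circles lie to the right of 0, and Fos has an interval of 0.087 to 2.24.

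Feedback regulators of the MAPK pathway were listed separately. Of 16 genes, 13 were tested, none was called, 4 were higher and none lower at an unadjusted p under 0.05 (3.07% and 4.18% of all genes), and the median difference was 0.19, against -0.01 over all genes. Besides Dusp1 these were the receptor tyrosine kinase inhibitors Spry1, Spry4 and Errfi1. Spry1 had 172, 179 and 193 in the first set and 233, 260 and 221 in the second (0.39, SE 0.16). Errfi1 had 103, 159 and 116 against 176, 179 and 169 (0.49, SE 0.20), and Spry4 differed by 0.41. In all 4 genes the sets did not overlap (5.28% of all genes in that direction). Dusp6, which acts on ERK, had 139, 271 and 162 against 245, 213 and 215 and overlapped.

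Glucocorticoid and clock genes were examined because the hour and stress of tissue collection are known to move them. Of 13 tested glucocorticoid-responsive genes, 5 were higher and 1 lower at an unadjusted p under 0.05, with none called and a median of 0.18. Among all genes 3.07% were higher and 4.18% lower, with a median of -0.01. Sgk1, a kinase of salt and stress responses, had 412, 435 and 467 in the first set and 620, 931 and 736 in the second (0.78, SE 0.20, adjusted p = 0.35). Of 16 tested clock genes, 2 were higher (3.07% of all genes), none was lower (4.18%) and the median was 0.17, against -0.01 over all genes. The higher ones were Per1, with 136, 218 and 218 against 312, 305 and 393 (0.85), and Ciart, a repressor of the clock, with 61, 102 and 68 against 121, 144 and 191 (0.99). Both had an adjusted p of 0.50. Per1 stands in both lists, and the hour of collection is not given by the labels, so its part in these values was not tested.

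Among the other genes with the smallest p in the higher direction, 8 besides Nr4a1 and Dusp1 are named by rule, none of them called (adjusted p = 0.23 for each). Cyp1a1, a cytochrome P450 that the aryl hydrocarbon receptor induces, had 29, 56 and 31 in the first set and 79, 160 and 187 in the second, a difference of 1.85 (SE 0.36). Its first-set mean of 38.7 lay below the filter at 43.5, which it passed through the higher values of other hearts. Frmd5, a protein with a FERM domain, had 853, 868 and 934 against 1059, 1382 and 1242 (0.46). Its other tested probe set differed in the same direction, by 0.58. Ntm, a neural adhesion molecule, differed by 1.39, Gdap10 by 0.57, Tmem116 by 0.53 and Nrip2, which binds nuclear receptors, by 1.15. Ntm had 24, 29.2 and 39.6 in the first set, all below the filter. The other probe sets of Ntm did not pass the filter and differed by -0.72 and 0.15.

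Slc15a2, a peptide transporter, and Zfp950 depended on the probe set. The brightest probe set of Slc15a2 differed by 1.96, from 28, 18 and 38 in the first set to 114, 105 and 99 in the second. The values of the first set lay below the filter at 43.5. The other tested probe set of Slc15a2 differed by -0.01. For Zfp950 the values were 0.66 and 0.25.

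In the lower direction 9 genes besides Tmem267 are named by the same rule, with adjusted p of 0.23 to 0.26. Cox19, needed to assemble cytochrome c oxidase, had 529, 458 and 487 in the first set and 282, 382 and 327 in the second, a difference of -0.58 (SE 0.10). Timp1, an inhibitor of matrix metalloproteinases, had 67.7, 90 and 64.4 against 41.4, 40.5 and 41.2 (-0.84, SE 0.18). In the second set these 3 values lay close together, near the filter at 43.5.

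Tnfrsf12a, the receptor of the cytokine TWEAK, had 580, 573 and 563 in the first set and 295, 388 and 233 in the second (-0.94, SE 0.21). Gadd45a, a stress and growth arrest gene, had 230, 281 and 237 against 197, 127 and 147 (-0.69). Tnfaip2 differed by -0.75, Gbe1, the glycogen branching enzyme, by -0.48 and Smim3 by -0.43. Lgi1, a secreted leucine-rich protein, had 123, 124 and 88 against 62, 44 and 60. Ppip5k1, an inositol pyrophosphate kinase, differed by -0.48 in its brightest probe set and by -0.05 in its other one. The sets did not overlap in any of the 9 genes as read from the brightest probe set. The choice by smallest p favours such genes, and 6.93% of all genes did not overlap in this direction.

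Genes of fatty acid use that PPAR factors control were lower on balance. Of 16 tested, none was called, 6 were lower and none higher at an unadjusted p under 0.05, beside 4.18% lower and 3.07% higher among all genes. The difference was above 0 in 1 of the 16, against 5210 of all 11189 genes, and the median was -0.25 against -0.01. Plin5, which coats lipid droplets in oxidative tissue, had 1739, 1723 and 1495 in the first set and 1289, 1410 and 1180 in the second (-0.35, SE 0.096). Acot2, a mitochondrial thioesterase, had 1739, 1550 and 1481 against 1382, 1209 and 1145 (-0.35), and Slc25a20, the carnitine carrier, differed by -0.24. These 3 are named for their small p, and their sets did not overlap. The same held for 5 of the 16 tested members in the lower direction, beside 6.93% of all genes. Ucp3, an uncoupling protein, had 522, 959 and 626 against 528, 423 and 308 (-0.73) and overlapped.

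Matrix genes that are known to rise after infarction were also lower on balance. Of 13 tested, 4 were lower and none higher at an unadjusted p under 0.05, beside 4.18% and 3.07% of all genes, 1 was above 0 and the median was -0.24, against -0.01. The lower ones were Timp1, Fstl1 (-0.33), Col8a1 (-0.44) and Col3a1 (-0.27), the last a fibrillar collagen. Fibroblast markers had a median of -0.19 over 11 tested genes, and their summed signal was 17885 to 19139 in the first set and 16131 to 18132 in the second. At an unadjusted p under 0.05, 2 of them were lower and 1 higher (4.18% and 3.07% of all genes). Macrophage markers had a median of -0.16 over 17 genes, and Cd14 and Lyz2 were lower at an unadjusted p under 0.05 (4.18% of all genes). Their summed signal was 5435 to 7904 in the first set and 5678 to 6385 in the second, which lies within the first. Adipocyte markers summed to 8699 to 9035 in the first set and 7527 to 8139 in the second, which do not overlap. Of 7 tested, 2 were lower and none higher at an unadjusted p under 0.05 (4.18% and 3.07% of all genes). The difference was above 0 in 4 of the 7, with a median of 0.06. In whole tissue, fewer cells of a type and less RNA per cell cannot be told apart.

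**Figure D3:**
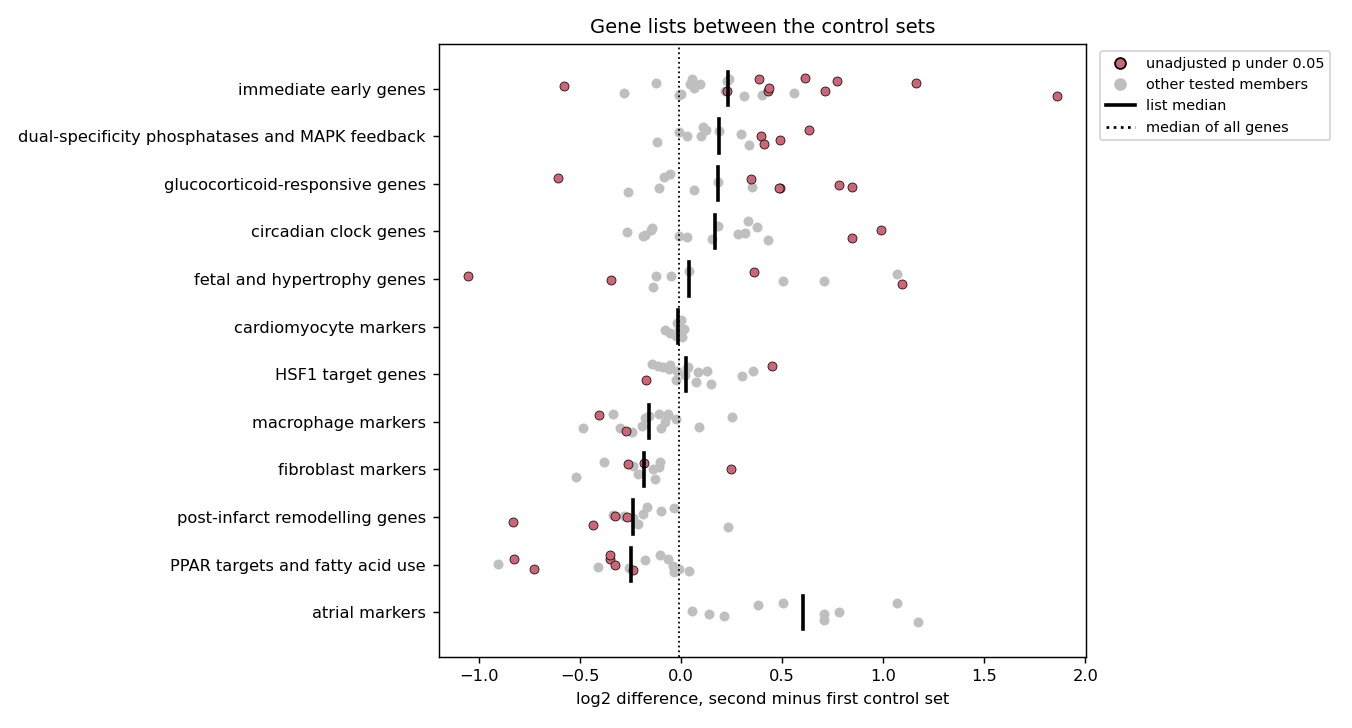
Log2 differences between the control sets for the tested members of 12 gene lists, each point a gene read from its brightest probe set, filled where the unadjusted p was under 0.05. Vertical bars mark list medians, from -0.25 for fatty acid use to 0.61 for the atrial markers, and the dotted line the median of all 11189 genes at -0.01.

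Markers of heart muscle itself lay in overlapping ranges. The 9 cardiomyocyte markers summed to 89140 to 106309 in the first set and 89667 to 106174 in the second, with a median difference of -0.02. Ribosomal protein genes (40 tested) and genes of oxidative phosphorylation (91 tested) had medians of -0.02 and -0.03. None of the 8 skeletal muscle markers passed the filter.

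Fetal and hypertrophy genes differed in both directions. Of 13 genes, 11 were tested, none was called, 2 were higher (Myh7 and Ccn2) and 2 lower (Acta1 and Rcan1) at an unadjusted p under 0.05, beside 3.07% and 4.18% of all genes, and the median was 0.04 against -0.01. Acta1, the skeletal alpha-actin that stressed hearts re-express, had 4001, 1584 and 3877 in the first set and 1222, 1815 and 1233 in the second, opposite in direction to Myh7. Its difference was -1.06 (SE 0.29, adjusted p = 0.40). Hearts 1 and 6 were high and heart 3 lay within the range of the second set, and without heart 3 the difference was -1.49 and was called (adjusted p = 0.024). With 1 of the other control hearts left out it was -1.24 to -0.83 and not called. Rcan1, an inhibitor and target of calcineurin, had 692, 676 and 764 against 517, 571 and 587 (-0.35). The other tested probe set of Rcan1 differed by -0.095, with sets that overlapped. Nppb, which encodes a natriuretic peptide, differed by -0.14 (SE 0.19) with sets that overlapped.

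The atrial markers had the highest list median, 0.61 over 10 tested genes, all above 0, but none had an unadjusted p under 0.05. Myl7, the atrial regulatory light chain, had 131, 2534 and 359 in the first set and 3707, 187 and 1583 in the second, and Nppa, atrial natriuretic peptide, had 2031, 5899 and 2293 against 6691, 2312 and 5063. Hearts 3, 8 and 11 were high in both genes and hearts 1, 6 and 10 low, so that the markers divided mice within each set rather than the sets. The summed atrial signal was 3679 to 14488 in the first and 3957 to 17903 in the second set. In the transgenic hearts it was high in hearts 2, 4 and 7 and low in hearts 5, 9 and 12, between 2928 and 23616. The part of the atrial signal in the other differences between the sets was not tested.

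**Figure D4:**
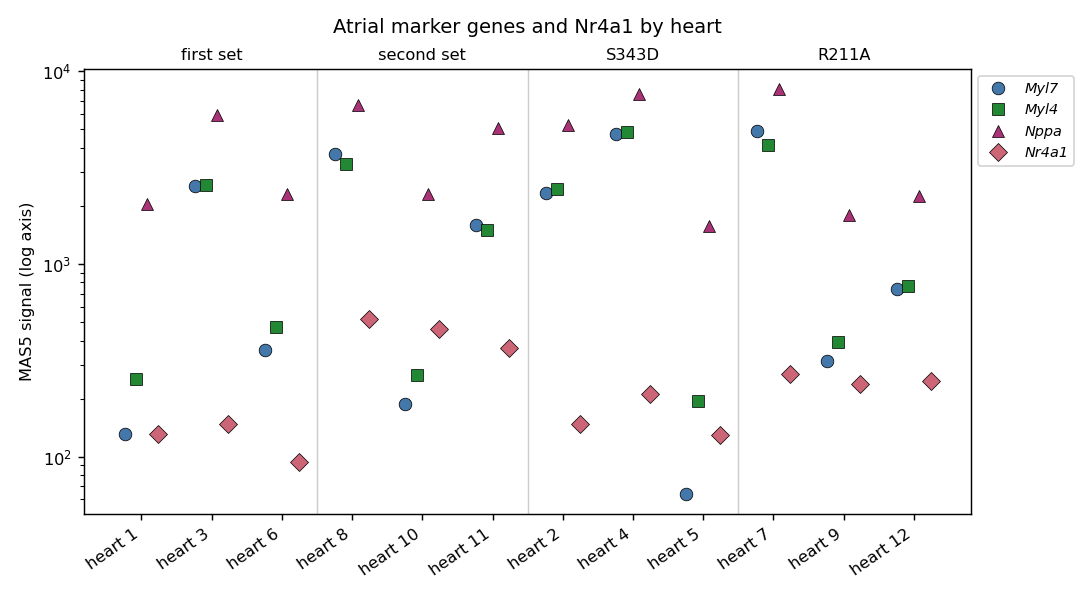
MAS5 signal on a log axis for the atrial genes Myl7, Myl4 and Nppa and for Nr4a1 in each of the 12 hearts, by group. The atrial genes change together from heart to heart within every group, and Nr4a1 lies at 94 to 147 in the first set and 364 to 517 in the second.

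Because the transgenic lines divide along the same heart numbers, the difference between TgR211A and TgS343D hearts can be set beside the difference between the control sets without any shared array. That contrast called 42 probe sets (0.187%), 22 as higher and 20 as lower in TgR211A. Over all 22519 probe sets the differences had a Pearson r of 0.088 and a Spearman rho of 0.085, as a description across probe sets, which are not independent. The sign was the same in 52.8% of them and in 58.3% of the 1800 with an unadjusted p under 0.05 between the control sets. In the transgenic contrast 1990 (8.84%) had an unadjusted p under 0.05. Both differences did in 281, of which 192 had the same sign and 89 the opposite sign. The 192 are 10.7% of the control list and 9.65% of the transgenic list, whereas the 8.84% counts both directions. Both contrasts take the spread of a probe set from the same fit, so passing in both is not independent.

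Tmem267 was the only probe set called in both contrasts. It had 190, 201 and 175 in TgS343D hearts and 68, 83 and 83 in TgR211A hearts, a difference of -1.28 (SE 0.14, adjusted p = 0.0013 by limma). The levels thus followed the heart numbers in wild type and transgenic mice alike, and the differences in the 2 contrasts differed by only -0.04 (SE 0.19). Whether line, litter or another feature of the heart numbers moves with it cannot be told apart.

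Myh7 had 678, 504 and 335 in TgS343D hearts and 1236, 1323 and 1324 in TgR211A hearts, a difference of 1.41 (adjusted p = 0.026). In this contrast it was called, and between the control sets it was not, but the differences themselves differed by 0.32 (SE 0.34, adjusted p = 0.88), so no difference between the contrasts was shown. The call was lost, at adjusted p of 0.054 to 0.12, without heart 6, without any of hearts 4, 5, 7, 9 and 12, with no filter on low signal and with no trend in the prior variance.

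Further probe sets with the same direction in both contrasts were picked after their values were seen and are given as values. Cyp1a1 had 60, 39 and 31 in TgS343D and 92, 136 and 166 in TgR211A hearts (1.62). Frmd5 had 875, 930 and 904 against 1157, 1361 and 1238 (0.47). Klf10 had 249, 225 and 255 against 171, 140 and 164 (-0.62) and Lgi1 differed by -0.91. None of these 4 was called in either contrast. Other genes named for their small p between the control sets went the opposite way between the lines. Among them, Cox19 differed by 0.34 and Gbe1 by 0.31 between the lines, against -0.58 and -0.48 between the control sets. Tmem116 differed by -0.20 and Nrip2 by -0.50, against 0.53 and 1.15, and none was called between the lines.

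A probe set of Rsrp1, an arginine and serine-rich protein, gave 0.53 between the control sets and 0.49 between the lines, while its brightest probe set was less uniform, with 1197, 1005 and 1120 in the first and 1155, 1532 and 1175 in the second set. The unnamed probe set 1445562_at had 53, 118 and 130 in the first set, 394, 448 and 536 in the second, 41, 90 and 87 in TgS343D and 195, 555 and 238 in TgR211A hearts. Its differences were 2.29 and 2.11 (adjusted p = 0.23 and 0.068). Another unnamed probe set, 1427820_at, went the other way, by -1.25 and -1.89, and the latter was called (adjusted p = 0.011). Idh1, the cytosolic isocitrate dehydrogenase, differed by -0.48 between the control sets and by -0.95 between the lines, the latter called (adjusted p = 0.0066). Its other tested probe set differed by -0.20 and by -0.08, neither called.

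Nr4a1 and Dusp1 had smaller differences between the lines than between the control sets, but neither reduction passed the correction. The log2 signal of Nr4a1 was 7.20, 7.72 and 7.02 in TgS343D and 8.07, 7.90 and 7.94 in TgR211A hearts, which do not overlap and differ by 0.66 (adjusted p = 0.30), and the differences in the 2 contrasts differed by -1.20 (SE 0.28, unadjusted p = 7.0e-04, adjusted p = 0.38). The order of its mean signals was the first set (124), TgS343D (162), TgR211A (251) and the second set (447). Dusp1 had 1181, 1111 and 1335 against 1428, 1461 and 1330 and overlapped, with a difference of 0.22, which is smaller by 0.41 (SE 0.16, adjusted p = 0.63). The immediate early list had a median of 0.13 between the lines. HSF1 target genes, mostly heat shock chaperones, had a median of 0.02 between the control sets and 0.54 between the lines over 18 tested genes, of which 1 was higher and 1 lower at an unadjusted p under 0.05 in the former contrast and 17 were higher in the latter (4.07% of all genes).

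**Figure D5:**
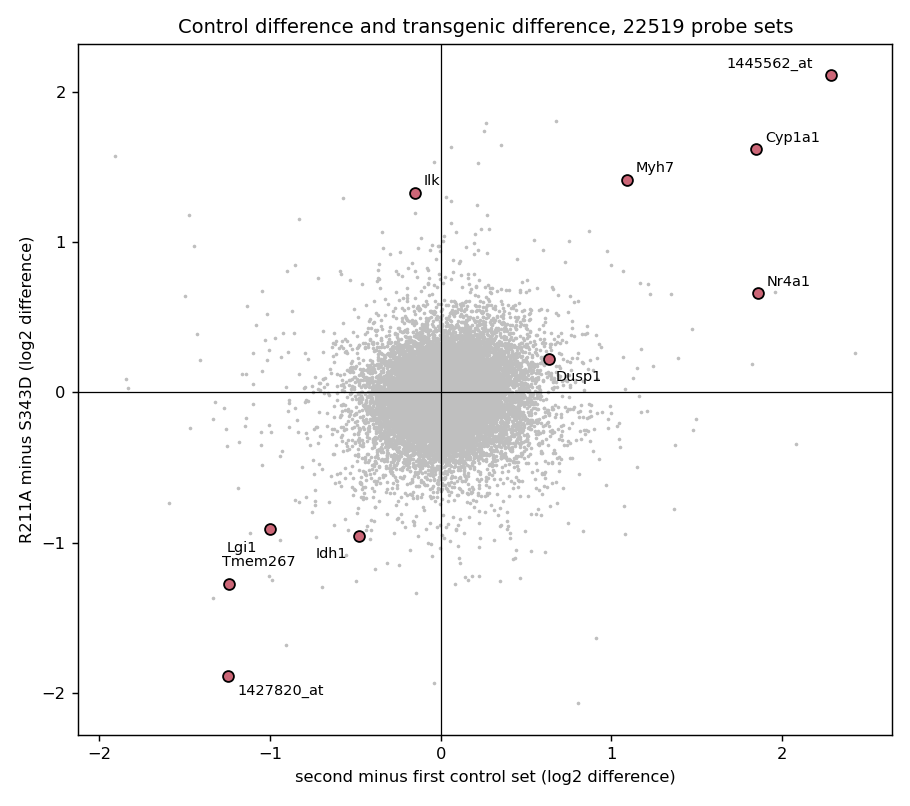
Log2 difference between TgR211A and TgS343D hearts (vertical) against the difference between the second and first control set (horizontal) for 22519 probe sets, with 10 named. Tmem267 (-1.24, -1.28) and 1445562_at (2.29, 2.11) lie along the diagonal, Nr4a1 (1.86, 0.66) lies nearer to the horizontal axis, and Ilk (-0.15, 1.33) lies on the vertical one.

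Each line was also set against each control set. TgR211A hearts gave 53 calls (0.235%) against the first set and 33 (0.147%) against the second, and TgS343D hearts gave 1 (0.00444%) and 3 (0.0133%). With a heart left out the TgR211A calls were 22 to 50 against the first set, where leaving out heart 1, 3, 6, 9 or 12 gave 22 to 35, and 7 to 37 against the second, where leaving out heart 1, 8, 9, 10, 11 or 12 gave 7 to 21. They were 36 and 21 with no filter on low signal and 15 and 5 with no trend in the prior variance. Whether the counts of 53 and 33 differ was not tested. The 3 TgS343D calls against the second set were 1 without heart 2, 5, 10 or 12, with no filter on low signal and with no trend, and 6 without heart 8. Against the second set the TgS343D calls were Ilk, Nr4a1 (-1.48, adjusted p = 0.023) and Tmem267 (1.05, adjusted p = 0.023). Against the first set Ilk alone was called, and Nr4a1 differed by 0.38 and Tmem267 by -0.19 (adjusted p = 0.99 for both). In TgR211A hearts the calls were the reverse for these genes. For Nr4a1 this does not place TgR211A hearts with the second set. Their mean signal (251) lay between those of the first (124) and the second set (447). Nr4a1 was called as higher than in the first set (1.04, adjusted p = 0.0495) and gave -0.82 against the second (adjusted p = 0.22), and Tmem267 was called against the first set (-1.46, adjusted p = 6.0e-04) but not against the second (-0.22, adjusted p = 0.81). Myh7 was also called in TgR211A against the first set (1.51, adjusted p = 0.017) and not against the second (0.41, adjusted p = 0.79). These comparisons share arrays and are given side by side.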

How the data were processed

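Per the labels, total RNA of 12 mouse hearts was hybridized to Affymetrix mouse arrays, 1 per mouse. The authors deposited signal intensities that the submitters' processing notes credit to MAS5. The MAS5 version is not given in the sources used here. Each array had the same mean signal without the lowest and highest 2%, and no further normalization was applied. Of 45101 features, 64 array controls were left out, and 22519 probe sets were tested, those whose log2 signal averaged the median (5.44) or more over 12 arrays. The platform's table gives a single gene to 34945 probe sets, more than 1 to 932 and no gene to 9160. Genes were taken from the brightest tested probe set that names only them (11189 genes). RefSeq gene order and promoters are those of GRCm38.p6.

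Models were fitted with limma 3.58.1 in R 4.3.3 (4 groups of 3 hearts, 12 arrays, empirical Bayes with a trend, two-sided). Figures were drawn with matplotlib 3.10.9. Named are Nr4a1, Dusp1, Myh7, the checks of the labels, the 10 genes with the smallest p in each direction, tested members of the early gene, MAPK feedback and fetal lists, and up to 4 members of each other list, of 30 in all. Genes shared with the transgenic contrast were added after their values were seen. The members, lists and tests were chosen with earlier results of these data known. Alternatives covered scaling, an offset of 32, filters, arrays in the fit, prior variance, array weights, each mouse left out, the probe set, the test, thresholds and a block for replicate numbers. In 10 simulated data sets of the same layout, 200 of 22519 probe sets were changed between the control sets, with independent normal noise. There, 43.8% of 1.5-fold, 76.1% of 2-fold and 92.9% of 3-fold changes were recovered, with 4.23% false calls. With only 2 calls, the real contrast held p to a stricter cutoff, so these shares do not carry over to it. Cyp1a1, for example, differed by 3.60-fold between the control sets and was not called.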

Additional observations from a re-analysis of the deposited data

Results flagged for a closer look

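The difference between TgR211A and TgS343D hearts and the difference between the control sets were tested against each other over all 22519 probe sets, and 3 differed by limma (adjusted p under 0.05). For Ilk, the transgene's own gene, the transgenic difference exceeded the control difference by 1.48 on the log2 scale. For Hsph1, a chaperone of the HSP110 family, it did so by 1.57 in 1 of its probe sets, and for Clu, the secreted chaperone clusterin, by 0.73. In 1568 probe sets the unadjusted p of this test was under 0.05. No explanation was tested.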

How the results depend on the processing

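Over 80 genes and probe sets followed through 1826 alternative values, 1813 kept their direction and their side of the threshold. Only Nr4a1 and Tmem267 of these were called at the start, so for the others staying uncalled counted as kept. Leaving out a transgenic heart, or changing the filter, the block or the prior variance, cannot move the control difference of a probe set. The count therefore says little about how stable the differences are. The 2 calls between the control sets became 1 with a stricter filter on mean signal, where Tmem267 was not tested. They were 1 with the 6 control hearts alone and 2 to 4 with a heart left out. The study's methods name a t-test but not which test gave the array gene list. An unpaired t-test with equal variance over the 6 control hearts gave 0 calls after Benjamini-Hochberg. At an unadjusted p under 0.05 this t-test gave 1472, where limma gave 1800. Nr4a1 had an adjusted p of 0.64 by the t-test, and the early gene median stayed between 0.19 and 0.33. Acta1 without heart 3 and Dusp1 without heart 11 became calls, as given above. Directions turned for Ankrd1 (-0.39 to 0.023 with a heart left out, turned without heart 6), Myl4 (-0.088 to 1.73, turned without heart 1 or 8), Xist (-0.051 to 0.098, turned without heart 11) and, with the mean of all probe sets, Xist (-0.0069) and Fabp4 (0.041), none of them called. The 42 calls between the lines were 7 with no trend in the prior variance, 64 at an adjusted p under 0.1, 1990 at an unadjusted p under 0.05 and 16 to 48 with a heart left out (16 without heart 12, 18 without heart 4, 20 without heart 9, 21 without heart 2). The 3 probe sets whose differences differed were 1 with no filter, 1 with no trend, 6 with array weights, 6 at an adjusted p under 0.1, 1568 at an unadjusted p under 0.05 and 1 to 3 with a heart left out (1 without heart 1, 2, 9 or 11). The calls of TgR211A were 22 to 50 against the first and 7 to 37 against the second set with a heart left out. The cause was not tested. Replicate numbers did not pair the sets, since the deviations of same-numbered hearts had r of -0.07, -0.14 and -0.02. With the replicate number as a block, 3 probe sets were called over 12 arrays, the added one being 1445562_at (adjusted p = 0.015), and over the 6 control hearts the block gave 2 calls, with Tmem267 at an adjusted p of 0.18 and 1445562_at at 0.032.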
